A study of Callithrix jacchus with 39 samples.

Results

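Heart was represented by 3 chromatin libraries among 39 samples from 8 tissues of Callithrix jacchus, the common marmoset. They were the libraries with heart in their title: H3K27ac replicates 1 and 2, and H3K4me3 replicate 2. They were set against the libraries of the same mark from skeletal muscle, liver, kidney, spleen, pancreas, colon and stomach, with 2 libraries per tissue and mark, or 14 per mark. The other 8 samples were inputs and are not analysed here. The labels give tissue, antibody (ab4729 for H3K27ac, ab8580 for H3K4me3) and a replicate number, and state no treatment, genotype, age or animal. All p-values below measure only how far these samples spread, and the 2 libraries of a tissue share that tissue and may share an animal. Each tissue is a mixture of cell types, so fewer cells of a type and less mark per cell cannot be told apart.

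H3K27ac, acetylation of lysine 27 of histone H3, is found at active promoters and active enhancers. H3K4me3, trimethylation of lysine 4, is found mainly at promoters. Heart wall is built of cardiomyocytes, the contracting cells, together with endothelial cells, fibroblasts, smooth muscle and immune cells, and it shares with skeletal muscle the striated contractile machinery. Promoters of genes used by every cell tend to carry both marks in all tissues, while enhancers differ more between tissues.

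Each library was a list of peaks, the stretches where the mark was called as enriched, with positions in the calJac3 marmoset genome build. The lists held 24590 to 51554 peaks for H3K27ac and 16386 to 24424 for H3K4me3, and the sequencing depth behind them is unknown, so a feature absent from a list is one without a called peak there. An H3K27ac peak is called enhancer-like where it overlapped no peak of the H3K4me3 replicate 2 list of its own tissue, and promoter-like where it overlapped one. Replicate 2 was used in every tissue because it is the one heart has. Features are named by position, because an annotation of calJac3 genes was not used here. For the same reason the heart label was not checked against heart marker genes.

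The heart H3K27ac lists were the shortest of the 16 and covered the least of the genome. Heart replicates 1 and 2 held 26689 and 24590 peaks, against a lowest of 30663, a median of 35520 and a highest of 51554 in the 14 other libraries. They covered 17.1 and 17.8 Mb in heart, against 22.1, 27.5 and 47.4 Mb as lowest, median and highest in the other tissues. Both heart libraries lay below all 14 others in both quantities. The mean heart list had 0.697 times as many peaks as the mean of the others, and 0.592 times the covered length. In an exact two-sided permutation test over all 120 choices of 2 libraries among 16, p was 0.0333 for peak number and 0.0417 for covered length. After Benjamini-Hochberg adjustment over the 13 measures compared, both were 0.135. The smallest p this test allows is 0.00833, which becomes 0.108 when a single measure reaches it, and none of the 13 measures passed 0.05. This test counts the 2 libraries of a tissue as separate units. With tissue means as the unit, the exact permutation test has 8 arrangements and cannot give a p under 0.125, so no measure can pass it, on full or on thinned lists. Its p was 0.25 for peak number and covered length, and 0.125 for the enhancer-like share, the replicate overlap of enhancer-like peaks and the share met in all 7 other tissues.

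Long heart peaks were few. Peaks of at least 2000 bp made up 1.44% and 1.96% of the heart lists, against 2.03% in the lowest other library (kidney replicate 1) and 7.86% in the highest (liver replicate 2). Heart had 1 and 6 peaks of at least 4000 bp, against 14 to 204 in the other libraries. The longest heart peaks were 4179 and 5918 bp. Median peak length was 498 and 565 bp in heart, against 521, 582 and 670 bp as lowest, median and highest elsewhere, and these groups overlapped (adjusted exact permutation p = 0.190).

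The heart lists leaned to peaks that every tissue has. Of heart peaks, 44.6% and 48.9% overlapped a peak in each of the 7 other tissues, against 20.7%, 32.7% and 38.1% as lowest, median and highest of the same measure in the other libraries. Both heart libraries lay above all 14 others, with a difference of means of 15.0 percentage points (exact permutation p = 0.00833, the smallest possible, adjusted p = 0.108). List length moved with this share. With all lists thinned to the same number of peaks, the difference was 4.40 points (exact permutation p = 0.00833, adjusted p = 0.0333). On thinned lists the enhancer-like share and the replicate overlap also reached this smallest p, which lowered the adjusted value. The adjusted value of 0.0333 therefore does not rest on this measure alone. With only the longest peaks of each list kept the difference was 3.61 points (exact permutation p = 0.00833, adjusted p = 0.100).

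Fewer heart peaks lacked H3K4me3. The enhancer-like share was 48.5% and 40.6% in heart, against 46.3%, 55.7% and 62.9% as lowest, median and highest elsewhere. Heart replicate 2 lay below all 14 others, and heart replicate 1 lay within the range of the other tissues. The difference was -10.5 points (exact permutation p = 0.0167, adjusted p = 0.108). It was -16.1 points on thinned lists (adjusted exact permutation p = 0.0333), -4.35 points with the longest peaks of each list (adjusted exact permutation p = 0.2) and -6.58 points without heart replicate 2. Thinning also cut the H3K4me3 lists, and took more peaks from the replicate 2 lists of the other tissues than from that of heart. The thinned value therefore does not compare this share on equal terms. On full lists, with H3K4me3 of any tissue used for every tissue, the difference was -16.5 points (exact permutation p = 0.00833, adjusted p = 0.0542). With any H3K4me3 library of the same tissue it was -9.2 points (adjusted exact permutation p = 0.135).

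**Figure D1:**
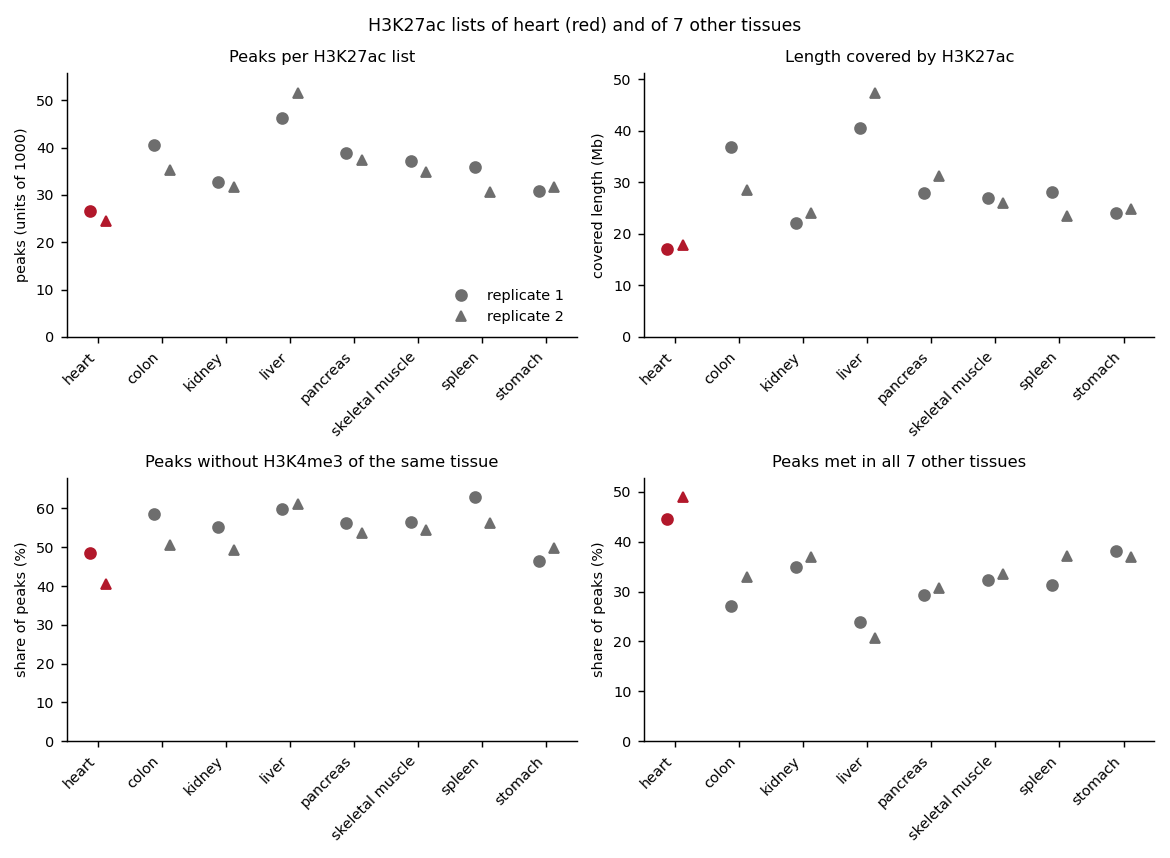
Peaks per list (in units of 1000), covered length (Mb), share of peaks without H3K4me3 of the same tissue (%) and share of peaks met in all 7 other tissues (%) for the 16 H3K27ac libraries, by tissue, with heart in red at the left; circles are replicate 1 and triangles replicate 2. Heart lies below all other libraries in the upper panels and above all of them at the lower right, while heart replicate 1 lies within the others' range at the lower left.

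In measures of tissue-restricted chromatin the heart libraries overlapped the others. Peaks overlapped in no other tissue were 12.3% and 6.26% of the heart lists, against 8.32%, 20.5% and 33.0% elsewhere as lowest, median and highest (adjusted exact permutation p = 0.181). Among enhancer-like peaks alone they were 24.6% and 14.6% in heart, against 16.8%, 35.9% and 53.1% (adjusted exact permutation p = 0.190). Heart missed 3.13% and 1.04% of the regions marked in all libraries of the 7 other tissues, against 0.0525%, 1.36% and 5.20% for the same measure in the other libraries (adjusted exact permutation p = 0.975). Chromosome X held 2.05% and 2.16% of heart peaks on assembled chromosomes, against 1.93% to 2.47% elsewhere (adjusted exact permutation p = 0.590). Enhancer-like peaks lay a median of 27.1 and 21.1 kb from the nearest H3K4me3 peak in heart, against 20.2 to 33.0 kb elsewhere (adjusted exact permutation p = 0.858).

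The heart replicates overlapped in most promoter-like peaks and in a smaller share of the enhancer-like ones. Heart replicates 1 and 2 found 93.4% and 83.3% of their promoter-like peaks in each other, and 38.9% and 49.5% of their enhancer-like peaks. The enhancer-like values elsewhere were 44.5%, 56.3% and 79.4% as lowest, median and highest, and the groups overlapped (difference -13.0 points, adjusted exact permutation p = 0.181). In heart replicate 1, 7911 of 12938 enhancer-like peaks were found in that library alone of the pair, with a median length of 362 bp against 499 bp for those in both. Of these one-library peaks, 64.1% overlapped a peak of another tissue, against 93.1% of the peaks both heart libraries held. In heart replicate 2 the one-library enhancer-like peaks numbered 5037 of 9974, of which 78.3% overlapped another tissue, against 92.6% of the shared ones. The library of another tissue closest to heart in covered bases was kidney replicate 2: its Jaccard index, the shared bases over the bases of either list, was 0.374 with heart replicate 1 and 0.449 with heart replicate 2. The heart replicates had an index of 0.475 with each other, so heart replicate 2 stood almost as near to that kidney library as to its own replicate. The 2 kidney libraries had an index of 0.474 with each other.

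Merging the peaks that both heart libraries held gave 15893 heart H3K27ac regions, of which 11603 were promoter-like and 4290 enhancer-like. Promoter-like regions made up 73.0% of these in heart, against 50.7% to 63.7% in the other tissues. These regions, found in both libraries of a tissue, are the base of the next counts.

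Most heart regions were marked everywhere. In heart 65.7% of the regions were met in all 7 other tissues, against a mean of 44.8% ± 6.73 (SD, n = 7 tissues) in the others. Such regions numbered 10435 in heart, against 10103 (spleen) to 10869 (stomach) in the others. All regions numbered 15893 in heart, against 19945 (kidney) to 31757 (liver). Heart thus differed in the total, while the number met in all 7 others lay within the range of the other tissues. Among enhancer-like regions, 21.9% of heart regions were met in all 7 others, against 6.59% ± 2.81 (SD, n = 7) and a highest of 9.71% in kidney. The class rests on the H3K4me3 replicate 2 list of each tissue, and the heart list was the shortest, with 18231 peaks against 18658 to 24424. A shared promoter without a called H3K4me3 peak in heart would count as enhancer-like there, and how far this moves these shares was not tested. An enhancer-like heart region was met in a median of 4.5 other tissues, against medians of 1 to 3 in the others. At the other end, 7.32% of heart enhancer-like regions were met in no other tissue, against 28.0% ± 13.0 (SD, n = 7) and a lowest of 11.9% in stomach. Promoter-like regions were met in all 7 others in 81.8% of heart cases, against 72.7% ± 6.49 (SD, n = 7), with spleen at 81.6%. With 1 value per tissue an exact permutation test over 8 tissues cannot give a p under 0.125, so none is given for these shares.

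**Figure D2:**
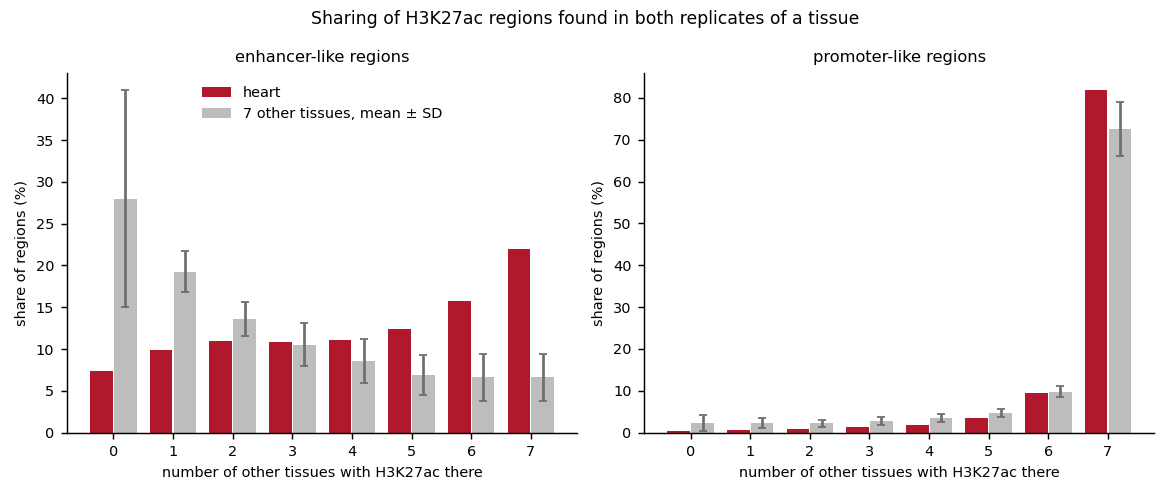
Share of regions (%) by the number of other tissues with H3K27ac there, for enhancer-like (left) and promoter-like regions (right) found in both replicates; red bars are heart and grey bars the mean of 7 other tissues with their SD. Among enhancer-like regions the heart bars grow toward 7 tissues, where heart stands at 21.9%, while the grey bars are tallest at 0.

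The heart-restricted set was small. Only 343 regions, 2.16% of the 15893, were found in both heart libraries and in no library of another tissue, and they covered 228 kb with a median length of 608 bp. Of these, 314 were enhancer-like and 29 promoter-like. Of the 343, 46 overlapped H3K4me3 of another tissue. Restricted heart enhancer-like regions lay far from promoters: their median distance to the nearest heart H3K4me3 peak was 47.9 kb, against 3.90 kb for heart enhancer-like regions met in all 7 other tissues. The same order held in each of the 7 other tissues, where the restricted regions lay at 24.7 to 49.0 kb and the shared ones at 3.94 to 9.82 kb. The count of restricted regions depends on which peaks are kept, being 131 with peaks of at least 500 bp, 448 with lists thinned to equal numbers of peaks and 572 with the longest peaks of each list.

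The longest heart-restricted region was chr13:2374600-2376791. Heart replicates 1 and 2 covered 2192 and 474 bp of it, and the 14 other libraries 0 bp. No library had H3K4me3 there, and the nearest heart H3K4me3 peak was 710 kb away. The second, chr1:16311118-16312708, was marked nearly alike in both heart libraries, with 1552 and 1461 bp, and lay 475 kb from heart H3K4me3. The region chr19:22981434-22982756 carried both marks in heart alone: 706 and 1323 bp of H3K27ac in heart replicates 1 and 2, and 1144 bp of heart H3K4me3, against 0 bp of either mark in every other library. It was 1 of 2 among the 10 longest restricted regions with heart H3K4me3. The other was chr18:12557490-12558696, with 1207 and 332 bp of H3K27ac and 658 bp of H3K4me3 in heart, against 0 bp of H3K27ac elsewhere and H3K4me3 of 470 bp in 1 other library. Of the 10, 1 lies on a scaffold assigned to chromosome 15 without a position on it. Coverage by the 2 heart libraries was unequal by more than 1.5 times in several of the 10, for example 1316 and 303 bp at chr15:69351116-69352456.

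The longest H3K27ac regions of heart were marked in the other tissues too. At chr4:31099376-31106046 heart replicates 1 and 2 covered 6203 and 6289 bp, against 412, 5052 and 6285 bp as lowest, median and highest elsewhere, so 13 of 14 other libraries lay below both heart libraries. At chr7:57591062-57596772 the heart libraries covered 4863 and 5394 bp, against 1697, 3735 and 5048 bp. Both of these regions carried H3K4me3 in heart and in all 14 other H3K4me3 libraries. Another of the 5 longest, chr7:35931439-35936100, had no heart H3K4me3 within it and the nearest lay 2.04 kb away. There the heart libraries covered 3844 and 4277 bp of H3K27ac, against 0, 1892 and 4329 bp elsewhere.

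Skeletal muscle, the other striated muscle of the series, was the most frequent sole partner of heart. Of the 4290 heart enhancer-like regions, 425 were met in exactly 1 other tissue. Skeletal muscle was that tissue for 142 of them, or 33.4%, followed by spleen with 81, kidney with 63, liver with 61, pancreas with 43, colon with 22 and stomach with 13. For the other 6 tissues, skeletal muscle was the sole partner of 1.97% (stomach) to 14.9% (liver) of such regions. In the opposite direction, heart was second for skeletal muscle, with 400 of 1924 regions, after liver with 552. Leaving out skeletal muscle replicate 1 gave a share of 26.7%, and with peaks of at least 500 bp skeletal muscle was the sole partner of 48 regions.

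Over all heart enhancer-like regions, skeletal muscle did not stand out. It met 55.3% of them, against 67.9% for pancreas, 67.1% for liver, 65.6% for spleen, 65.1% for kidney, 54.5% for stomach and 42.4% for colon. Counted by library over heart enhancer-like peaks, skeletal muscle replicates 1 and 2 met 34.7% and 33.2%, against 26.6%, 35.7% and 44.7% as lowest, median and highest of the 12 libraries of the 6 remaining tissues. The difference was -1.72 points, with 6 of 12 libraries above both skeletal muscle libraries (exact two-sided permutation p = 0.725 over 91 choices, adjusted p = 0.725). Promoter-like heart peaks were met by 82.5% and 83.6%, against 79.7%, 87.9% and 94.6% (difference -4.37 points, exact permutation p = 0.264, adjusted p = 0.527). List length differs between the partner tissues, from a mean of 31188 peaks in stomach to 48936 in liver, and these differences were also computed on lists cut to equal numbers of peaks. For enhancer-like peaks the difference was then -1.07 points on thinned lists (exact permutation p = 0.747) and -1.53 points with the longest peaks (exact permutation p = 0.681). For promoter-like peaks it was -1.65 points on thinned lists (exact permutation p = 0.780) and -4.86 points with the longest peaks (exact permutation p = 0.308). Of heart regions of both classes met in 6 of the 7 other tissues, 680 were missing from skeletal muscle, 505 from colon and 378 from spleen, and 17 to 72 from each of the other 4 tissues.

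**Figure D3:**
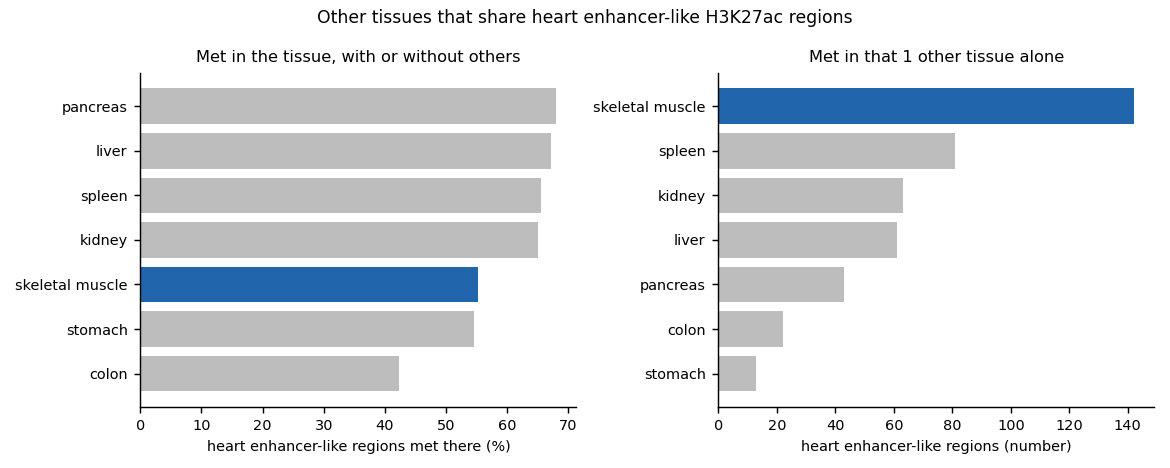
Heart enhancer-like H3K27ac regions found in both heart libraries, by other tissue: the share met in that tissue (%, left) and the number met in that tissue alone (right); skeletal muscle is in blue. Skeletal muscle ranks below 4 other tissues at the left with 55.3% and first at the right with 142 regions.

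Few regions marked in every other library were missing from heart. Of 7880 regions found in all 14 libraries of the other tissues, 31 (0.393%) were absent from both heart libraries, against 2 (pancreas) to 244 (skeletal muscle) for the same count in the other tissues. Heart replicate 1 missed 247 and heart replicate 2 missed 82. Of the 31, 13 carried heart H3K4me3, and 28 carried H3K4me3 in some other tissue. The longest, chr15:40137760-40142033, spanned 4274 bp, with no heart H3K27ac or H3K4me3, against 335, 1518 and 4274 bp of H3K27ac as lowest, median and highest in the 14 others. At chr5:64596001-64599056 the heart H3K4me3 library covered 693 bp, against 699, 1025 and 2561 bp elsewhere, while heart H3K27ac was 0 bp in both libraries, against 343 to 2892 bp. Absence rests on any overlap of 1 bp: with an overlap of at least 50% of the region required, 1928 regions counted as missing.

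To place the differences along the genome, the H3K27ac-covered length was compared in 100 kb windows with limma on log2(covered bp + 300), each library scaled to the mean total. Of 19262 windows, 2162 (11.2%) were higher in heart and 2490 (12.9%) lower, at an adjusted p under 0.05. These counts are not stable. Without scaling they were 468 and 4219, so the higher share of calls was 46.5% with scaling and 9.99% without, and the median window differed by -0.17 (log2) with scaling and -0.39 without. With lists thinned to equal numbers of peaks, 541 windows were higher and 605 lower. Without heart replicate 1 the counts were 746 and 680, and without heart replicate 2 they were 1152 and 996. On simulated lists with totals as unequal as the real ones, the fit made clearly more false calls than its threshold allows, mostly of windows lower in heart, whereas with equal totals and a spread between replicates near the real one it came close to the threshold. The counts on full lists therefore cannot be read at the error rate of 0.05.

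The calls made on thinned lists were nearly all among the calls on full lists: 530 of 541 higher windows (98.0%) and 583 of 605 lower windows (96.4%). They were 24.5% of the higher and 23.4% of the lower calls on full lists, and none changed direction. Separation of the libraries gave smaller sets too. Both heart libraries lay above all 14 others in 1055 windows (5.48%) and below all 14 in 85 (0.441%). This balance rests on the scaling: without it, both lay above all others in 158 windows and below all in 573. In 1968 of the 2490 windows called lower, neither heart library had a peak, against 7382 of all 19262 windows tested.

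Heart H3K4me3, a separate assay, was read in the same windows as a description. It lay above all 14 other H3K4me3 libraries in 10.5% of the windows with higher heart H3K27ac, against 4.08% of all windows tested. In the 909 windows called higher with both heart libraries above all others, it did so in 11.9%. A window without heart H3K4me3 cannot count as above. Every window called higher held a heart H3K27ac peak, while 7382 of all 19262 windows held none, so this background is unlike the called windows. Heart H3K4me3 lay below all 14 others in 2.33% of the 2490 windows with lower heart H3K27ac, against 2.05% of all windows, so that share was near the background. A window where another library has no H3K4me3 cannot count there. In the same 2490 windows, of which 1968 held no heart H3K27ac peak, heart H3K4me3 lay above all 14 others in 0.281%, against 4.08% of all windows. It lay above the median of the others in 8.51%, against 31.2% of all windows, and below the median in 24.6%, against 21.5%. In the 83 windows called lower with both heart libraries below all others, heart H3K4me3 lay below all 14 others in 13.3%.

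Over all 2162 windows called higher, a median of 14 other libraries held a peak. The median covered length in them was 2.18 kb in heart, against 1.89 kb in the others. Unlike these, the 10 windows with the largest higher values in heart mostly lacked a peak in the other libraries. The first of the 10, on chromosome 8 from 3.2 to 3.3 Mb, held 2.39 and 4.20 kb of H3K27ac in heart replicates 1 and 2, against 0 kb in 13 other libraries and 0.305 kb in liver replicate 2. Its scaled log2 difference was 4.12 ± 0.20 (SE; limma adjusted p = 1.12e-06). H3K4me3 was present there in all tissues, with 2.75 kb in heart against 0.402, 1.38 and 4.15 kb as lowest, median and highest elsewhere, so the heart value lay within the range of the others. The second, on chromosome 3 from 15.9 to 16 Mb, held 7.26 and 8.53 kb in heart, against a median of 0.327 kb and a highest of 3.23 kb (liver replicate 1) elsewhere. Its log2 difference was 4.06 ± 0.63 (SE; limma adjusted p = 0.00245). The fourth longest heart-restricted region, chr3:15941466-15943015, lies within it. On chromosome 1 from 57.4 to 57.5 Mb, heart held 2.71 and 3.27 kb, against 0.350 kb at most, and its H3K4me3 of 4.73 kb was above all 14 others, of which the highest had 3.97 kb.

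Another group of windows had no H3K4me3 in heart. On chromosome 21 from 32.5 to 32.6 Mb heart held 3.25 and 2.25 kb of H3K27ac, against 0.700 kb at most (spleen replicate 1), and no H3K4me3 was called in any library. The same absence of H3K4me3 in all 15 libraries held on chromosome 5 from 127.7 to 127.8 Mb, where heart held 3.72 and 1.69 kb of H3K27ac against 0.882 kb at most. It held too on chromosome 7 from 7.3 to 7.4 Mb, where heart had 2.46 and 3.04 kb against 0.711 kb at most. The tenth window, on chromosome 16, was the least even, with 4.29 and 1.81 kb in heart against 1.57 kb at most, and it lost its call without heart replicate 1 (limma adjusted p = 0.0675).

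The 10 windows with the largest lower values had a peak in all 14 other libraries. The rule that chose them required this, because both heart libraries had to lie below all 14. On chromosome 3 from 39.5 to 39.6 Mb heart had 0 kb in both libraries, against 0.300, 3.44 and 13.8 kb as lowest, median and highest elsewhere (colon replicate 1 the highest). Its log2 difference was -3.65 ± 0.41 (SE; limma adjusted p = 0.000416). Heart H3K4me3 was present there at 2.04 kb, against 1.85, 2.94 and 4.08 kb elsewhere. On chromosome 8 from 28.5 to 28.6 Mb heart had 0 and 0.381 kb of H3K27ac, against 1.23, 3.56 and 15.5 kb (kidney replicate 2 the highest), and no H3K4me3, against 0.382, 3.13 and 8.76 kb in the 14 other lists. Heart replicate 2 thus held a short H3K27ac peak there and heart replicate 1 none. The fourth, on chromosome 12 from 75.0 to 75.1 Mb, had 0 kb in heart against 0.576, 3.10 and 4.03 kb, and lost its call on thinned lists (limma adjusted p = 0.150). All 20 windows kept direction and call without scaling.

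**Figure D4:**
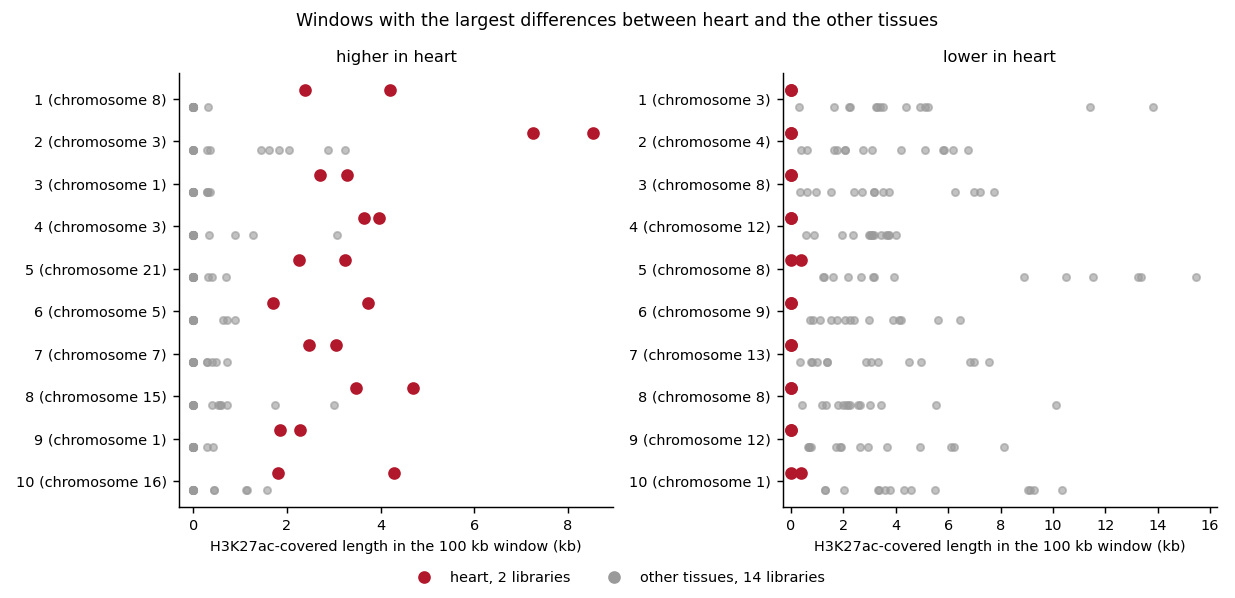
H3K27ac-covered length (kb, before scaling) in the 10 windows highest (left) and 10 lowest (right) in heart, ranked by the scaled log2 difference; red points are the 2 heart libraries and grey points the 14 libraries of other tissues. In each window at the left both red points lie right of all grey points, and at the right both lie left of them, a separation the choice of windows required.

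By chromosome, the heart share of peaks lay outside the range of the 14 others on 2 of 24 chromosomes, and above it on both. Chromosome 22 held 5.48% and 6.08% of heart peaks, against 4.24% to 5.37% elsewhere. Chromosome 5 held 9.51% and 9.42%, against 8.43% to 9.13%. On chromosome 22, 110 of 434 windows (25.3%) were called higher in heart, against 11.2% of all windows.

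The single heart H3K4me3 library can be described without a test. It held 18231 peaks over 15.4 Mb with a median length of 735 bp, against medians of 21027 peaks, 20.7 Mb and 852 bp in the 14 other libraries. Only 3 others were lower in each of these quantities, all of them replicate 1 libraries. Among the replicate 2 lists alone, heart was the lowest of 8 in all of these quantities. Heart had 5 H3K4me3 peaks of at least 4000 bp, against 12 to 89 in the other replicate 2 lists.

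Heart H3K4me3 peaks were widely shared. In heart 82.8% overlapped a peak in all 7 other tissues, against 56.3%, 67.0% and 84.1% as lowest, median and highest elsewhere, with 12 of 14 libraries lower. The 3 lists shorter than that of heart stood near it: pancreas replicate 1 at 84.1%, skeletal muscle replicate 1 at 83.9% and spleen replicate 1 at 82.0%. Heart peaks were sought in 2 lists per tissue, while peaks of the other tissues also had to be met in the single heart list. Only 158 heart peaks (0.867%) overlapped none, against 108 to 3008 in the others, and 70 of the 158 (44.3%) also carried heart H3K27ac. The heart list missed 91 of 10618 regions that all other H3K4me3 libraries held, or 0.857%, against 0.00949% to 3.50% for the same measure elsewhere. The other H3K4me3 libraries nearest to heart in covered bases were skeletal muscle replicate 1 (Jaccard index 0.641) and spleen replicate 2 (0.632). The other skeletal muscle library, replicate 2, had an index of 0.548 and ranked 12 of 14.

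In heart, 19.4% of H3K4me3 peaks (3538) overlapped no heart H3K27ac, against 11.4%, 23.5% and 35.6% as lowest, median and highest elsewhere, so heart lay inside the range. These peaks were short, with a median of 424 bp, against 837 bp for heart H3K4me3 peaks that carried H3K27ac. H3K27ac was found in another tissue at 75.1% of them, against 99.2% of the heart H3K4me3 peaks with H3K27ac. The longest heart H3K4me3 region, chr12:74461901-74466532, was covered over 4632 bp in heart, against 4016, 4602 and 4632 bp elsewhere. Its H3K27ac was 2882 and 3378 bp in heart, against 3278, 4289 and 4625 bp, with none of the other libraries below both heart libraries.

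**Figure D5:**
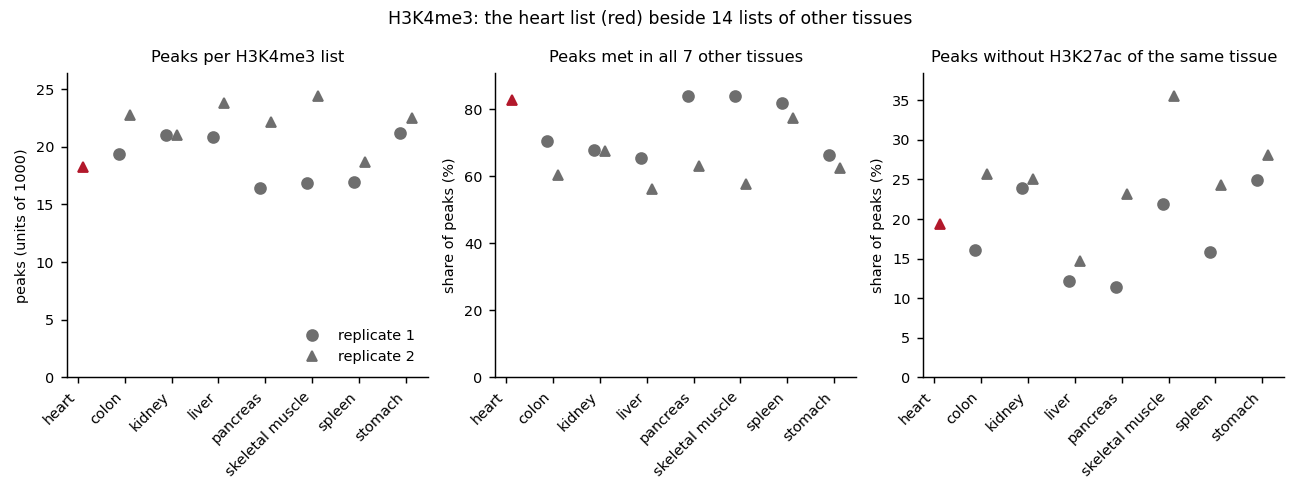
Peaks (in units of 1000), share of peaks met in all 7 other tissues (%) and share of peaks without H3K27ac of the same tissue (%) for the 15 H3K4me3 lists, with the single heart list in red at the left; circles are replicate 1 and triangles replicate 2. Heart, at 82.8% shared, lies above all other replicate 2 lists in the middle panel and within their range at the right.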

How the data were processed

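Per the labels' protocols, libraries of both marks were prepared with an Illumina TruSeq kit. The submitters' processing notes name MACS2 2.1.1.20160309, Bowtie 1.1.2, bedtools 2.26 and SAMtools 1.3.1 without a role. The authors deposited a separate peak list for each ChIP library, not lists of pooled replicates, and columns 1 to 3 (sequence, start, end) were used here. The build, calJac3, was taken from the deposited peak names. For the role of the inputs in peak calling, nothing is stated in the labels or file contents. Read depth is unknown, so no interval or floor was computed, and a deeper library can give a longer list.

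Libraries were grouped by tissue, mark and replicate number. Overlap meant at least 1 bp. Regions found in both replicates were peaks of either list overlapped by the other, merged. The 13 library measures and 2 skeletal muscle comparisons were tested with exact two-sided permutation tests and Benjamini-Hochberg adjustment within each family. Windows of 100 kb with a peak in at least 2 H3K27ac libraries were compared with limma 3.58.1 in R 4.3.3 (1 term per tissue, 8 residual degrees of freedom, trend, adjusted p under 0.05), as heart minus the mean of the 7 other tissues. The pseudocount was 300 bp. Intervals were handled with Python 3.11.15 and numpy 2.4.6. Alternatives changed the overlap (50% of the peak), peak length (at least 500 bp), list length (the longest peaks, or peaks at even steps, as many as in the shortest list of the mark), H3K4me3 lists, sequences, window size (50 kb), pseudocount, scaling, the filter, the block and the libraries included.

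The overlap and permutation code gave the known answers on simulated lists. The window fit did not hold its error rate on simulated lists of unequal totals at any of the 3 spreads between replicates that were tried. With equal totals it came close to the threshold at the 2 smaller spreads, which were nearer to the real one, and exceeded it at the largest. The real windows had been fitted before these simulations, and the fit on thinned lists was added because of them.

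Named features followed a rule: the 10 windows with the largest positive and the 10 with the largest negative difference among those called on assembled chromosomes with both heart libraries beyond all 14 others, the 5 longest regions of each mark in heart, and the 10 longest heart-restricted regions. Other positions were chosen after their values were seen. The members and lists were chosen with earlier results of these data known. Gene and marker lists were not used, because the available gene tables are of a different build.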

Additional observations from a re-analysis of the deposited data

How the results depend on the processing

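None of the 13 library measures passed 0.05 after adjustment in the main test. With lists thinned at even steps, which removes peaks from every list except the shortest of its mark, the enhancer-like share differed by -16.1 points and the share met in all 7 other tissues by 4.40 points, both at an adjusted exact permutation p of 0.0333. With the longest peaks of each list the enhancer-like share differed by -4.35 points, and over libraries left out by -14.5 to -6.58 points. With tissue means as the unit no p under 0.125 is possible. On the lists thinned at even steps, the difference in replicate overlap turned to 14.9 points (adjusted exact permutation p = 0.0333). On the same lists, the difference in replicate overlap of enhancer-like peaks turned to 2.64 points and that in common regions missing to -12.3 points. Heart replicate 2 is the shortest H3K27ac list and loses no peak under this thinning, and the replicate 2 H3K4me3 lists of the other tissues lose more peaks than that of heart, so these shifts follow in part from how the lists were thinned. Each measure with an adjusted exact permutation p of 0.0333 had reached the smallest possible p, and each lowered the adjusted value of the others. The difference in common regions missing was also 15.5 points with an overlap of at least 50% (exact permutation p = 0.0750). It was 0.0109 in the main test, -0.0155 on assembled chromosomes and -1.61 with the longest peaks. The difference in enhancer-like distance was 0.0347 kb with any H3K4me3 library of the tissue, against -0.947 kb in the main test. The difference for heart enhancer-like peaks met by skeletal muscle was 2.61 points with H3K4me3 of any tissue. The causes of these were not tested.

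Leaving out 1 library moved the difference in common regions missing from -1.31 to 0.941 points, the Jaccard index difference from -0.00699 to 0.0364 and the distance difference from -3.94 to 2.05 kb. Across the same settings the share of skeletal muscle among sole partners was 26.7% to 35.3%, windows higher in heart 746 to 2367 and windows lower 680 to 2746, the lowest without heart replicate 1. Alternatives added after seeing the data gave 572 restricted regions with the longest peaks and 131 with peaks of at least 500 bp. They gave 1928, 7 and 0 common regions missing from both heart libraries with 50% overlap, the longest peaks and thinning, a skeletal muscle share of 27.3% with thinning and 48 regions met in skeletal muscle alone with peaks of at least 500 bp. Windows higher numbered 468 without scaling and 541 thinned, and windows lower 4219 without scaling, 4428 at 50 kb, where more windows are tested, and 605 thinned.

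Replicate 1 deviations of heart correlated with those of the other tissues at 0.012 to 0.092 over windows, all of them positive. These low values cannot decide whether equal replicate numbers mark a shared animal, because scatter within windows would lower such a correlation. With the replicate block, 2164 windows were higher and 2398 lower, and the share met in all 7 other tissues had an adjusted exact permutation p of 0.163, so no call on the library measures changed. Depth, unknown here, limits every comparison of list length.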
